A study of Mus musculus with 12 samples.

Results

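The 10 receptor chains described here, through which growth factors and cytokines act on blood-forming and myeloid cells, were followed across 4 dendritic cell (DC) populations of the inflamed mouse lung. The 10 genes, of 10929 tested, were Flt3, Kit, Csf1r, Csf3r, Csf2ra, Csf2rb, Csf2rb2, Il3ra, Il7r and Il4ra. They were chosen by symbol, as probe sets whose platform annotation gave exactly 1 of these names. That rule found 18 probe sets, and in each gene the probe set of the highest mean over the 12 arrays stands for it, while the others served as a check. All 10 genes passed the filter on low signals, which asked for a signal above the array's median on at least 3 arrays.

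RNA was profiled on an Affymetrix mouse array from DC sorted out of the lungs of male C57BL/6J mice, 8 to 12 weeks old. All groups shared the same treatment, 100 ng of lipopolysaccharide (LPS, a molecule of bacterial walls that innate cells sense) and 100 ug of ovalbumin in 50 ul of PBS given into the airway 16 h earlier, so there is no untreated lung here. The groups were conventional DC bearing CD103 (CD103+ cDC), conventional DC that were CD11bhi and CD14lo (CD14lo cDC), monocyte-derived DC that were CD11bhi and CD14hi (CD14hi moDC), and monocyte-derived DC that were CD11bhi and Ly6Chi and are called inf.moDCs in the labels (Ly6Chi moDC). Each had 3 arrays, each from cells of 20 mice and sorted to a purity above 93%, and this number of arrays limits the precision. The sources used here do not say whether equal replicate numbers mark shared mice.

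Receptors of this kind bind a secreted factor and pass the signal through their own kinase (Flt3, Kit and Csf1r) or through JAK kinases and STAT factors bound to the receptor tail (the cytokine receptor chains). Flt3 and its ligand drive the growth of conventional DC, Csf1r serves monocytes and macrophages, and Csf3r serves neutrophils. The receptor for GM-CSF, built from Csf2ra and a beta chain, is used by both conventional and monocyte-derived DC, and GM-CSF is a major factor for myeloid cells of the lung.

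Promoter sequences are shown for 4 of the genes, because these 4 stand for the 3 patterns below: Flt3 and Kit were high in the cDC, Csf3r was high in the moDC, and Csf2ra showed no called difference. Each run is the 250 bases before the RefSeq transcription start in GRCm38.p6, 5′ to 3′ on the strand of the gene. Flt3 lies at chr5:147400490-147400739 (minus strand), Kit at chr5:75574737-75574986 (plus strand), Csf3r at chr4:126024409-126024658 (plus strand) and Csf2ra at chr19:61228419-61228668 (minus strand). Capitals mark GAGGAA, the core bound by the myeloid factor PU.1, and GGGCGG, the GC box bound by Sp1, on either strand.
Flt3: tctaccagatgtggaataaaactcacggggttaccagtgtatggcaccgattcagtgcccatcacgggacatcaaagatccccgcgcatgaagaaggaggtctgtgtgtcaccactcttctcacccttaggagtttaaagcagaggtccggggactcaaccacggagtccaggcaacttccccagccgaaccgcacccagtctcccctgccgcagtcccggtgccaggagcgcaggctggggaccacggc
Kit: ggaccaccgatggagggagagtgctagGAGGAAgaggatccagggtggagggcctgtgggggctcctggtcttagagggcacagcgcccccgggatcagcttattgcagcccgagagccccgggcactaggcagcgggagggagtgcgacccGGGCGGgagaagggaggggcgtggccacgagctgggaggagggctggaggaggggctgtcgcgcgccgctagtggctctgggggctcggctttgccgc
Csf3r: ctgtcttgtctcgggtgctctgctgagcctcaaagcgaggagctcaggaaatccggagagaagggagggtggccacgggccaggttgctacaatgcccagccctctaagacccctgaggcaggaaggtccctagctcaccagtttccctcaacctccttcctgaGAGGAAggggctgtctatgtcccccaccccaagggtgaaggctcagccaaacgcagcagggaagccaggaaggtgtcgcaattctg
Csf2ra: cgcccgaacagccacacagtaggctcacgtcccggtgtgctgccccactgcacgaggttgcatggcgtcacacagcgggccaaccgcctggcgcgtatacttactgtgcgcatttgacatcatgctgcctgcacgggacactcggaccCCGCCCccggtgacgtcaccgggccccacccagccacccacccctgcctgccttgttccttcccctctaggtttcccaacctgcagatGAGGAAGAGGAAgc
The Kit window held 1 GAGGAA at 223 bases before the start and 1 GC box. The Csf3r window held 1 GAGGAA, at 86 bases before the start. The Csf2ra window held 2 such cores, at 14 and 8 bases before the start, and 1 GC box, whereas the Flt3 window held neither motif. Over all 32851 windows of this length in the RefSeq table, 23.3% held GAGGAA and 32.7% held GGGCGG on either strand, so either motif is common. The other motifs searched, TTCNNNGAA (a STAT palindrome, in 7.02% of windows) and TGTGGT (a RUNX core, in 14.0%), were in none of these 4. A match is a stretch of letters, not a measured binding site. Of the 10 genes, 8 had an entry in the promoter table.

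The arrays of a population resembled each other, with correlations across genes of 0.973 to 0.983. The CD103 and CD14 transcripts went with the sort. Xcr1, a CD103+ cDC marker, averaged 2656 in CD103+ cDC, 94.8 in the CD14lo cDC, 33.2 in the CD14hi moDC and 16.9 in the Ly6Chi moDC, and Itgae, which encodes CD103, averaged 15178, 855, 140 and 86.5 in that order. Cd14 averaged 968 ± 425 in CD103+ cDC, 1537 ± 245 in the CD14lo cDC, 11669 ± 2480 in the CD14hi moDC and 10836 ± 1701 in the Ly6Chi moDC. Of 9 genes of the conventional DC programme 9 were higher in the cDC (20.8% of all genes). Of 10 monocyte and macrophage genes, among them Cd14, which encodes a sort marker, 10 were lower (20.7% of all genes). Between CD14lo cDC and CD14hi moDC, 7 of the 9 conventional DC genes were higher and 1 was lower (6.95% and 9.24% of all genes). Zbtb46, a transcription factor of conventional DC, still averaged 1424 in the CD14hi moDC, against 189 in the Ly6Chi moDC. Ly6c2, which encodes a sort marker, and Clec9a had no probe set with a single symbol, so the Ly6Chi sort could not be checked. The Gapdh 3′ to 5′ signal ratio, a measure of RNA quality, was 3.26, 1.68 and 3.27 on the CD103+ cDC arrays and lay between 1.48 and 2.29 on the other 9.

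Signals are MAS5 intensities (arbitrary units), shown per array in replicate order or as the mean ± SD (n = 3 arrays). Log2 differences carry the SE of the limma fit and were taken on signals raised by a pseudocount of 50.0, so folds of dim genes are understated. A difference was called at an adjusted p under 0.05 in a limma fit of all 12 arrays, Benjamini-Hochberg adjusted over all genes tested. Levels are compared within a gene only. In sorted bulk samples fewer cells with a transcript and less transcript per cell cannot be told apart.

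**Figure D1:**
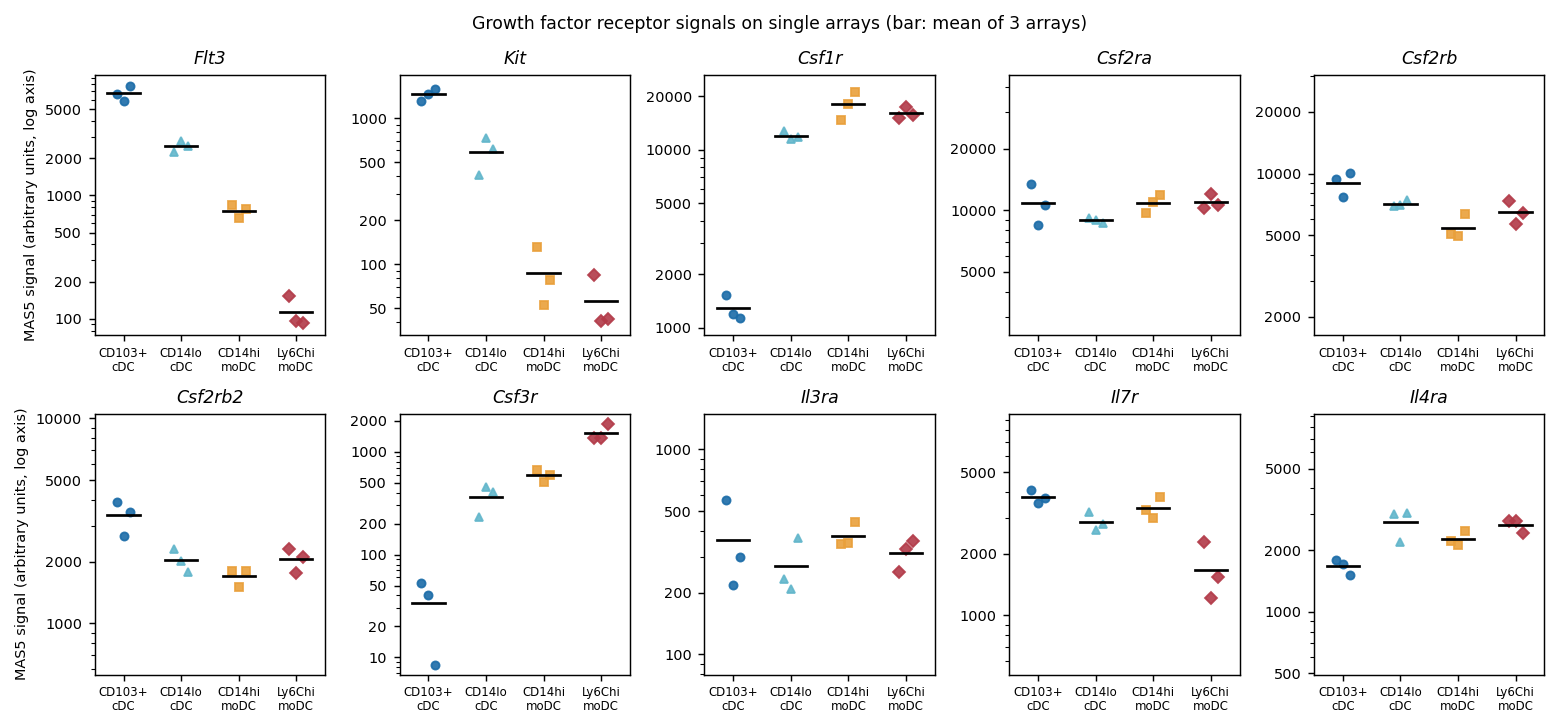
MAS5 signal (arbitrary units, log axis) of the 10 receptor genes on each of the 12 arrays, by population, with a bar at the mean of 3 arrays. The 4 populations lie at separate levels for Flt3, CD103+ cDC stand apart for Csf1r and Csf3r, and the populations lie close together for Csf2ra and Il3ra.

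Flt3, the receptor tyrosine kinase on which conventional DC development depends, fell into 4 separate levels. Its probe set gave 6673, 5899 and 7676 in CD103+ cDC, 2262, 2752 and 2525 in the CD14lo cDC, 833, 658 and 769 in the CD14hi moDC, and 153, 95.1 and 91.5 in the Ly6Chi moDC. No array of one population overlapped another population. The cDC were 11.6-fold higher than the moDC (log2 difference 3.53 ± 0.12, adjusted p = 4.6e-13). Each step down the order was called as well, by 1.40 ± 0.17 for CD103+ over CD14lo cDC (adjusted p = 4.3e-06), by 1.68 ± 0.17 for CD14lo cDC over CD14hi moDC (adjusted p = 1.1e-06) and by 2.31 ± 0.17 for CD14hi over Ly6Chi moDC (adjusted p = 1.3e-08). The step inside the moDC, 4.97-fold, therefore stood beside steps of 2.65-fold inside the cDC and 3.19-fold between CD14lo cDC and CD14hi moDC. From end to end, CD103+ cDC were 42.0-fold higher than Ly6Chi moDC, a log2 difference that ran from 4.47 to 5.80 over the alternatives. All 7 differences were called under every alternative of the processing without a fold requirement. Flt3 was 1 of 149 genes, 1.36% of those tested, called between all 6 pairs of populations, and 0.302% of genes had a larger range of population means.

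Kit, the stem cell factor receptor of progenitors and mast cells, followed the same order but did not part the moDC populations. It gave 1317, 1467 and 1588 in CD103+ cDC, 408, 727 and 610 in the CD14lo cDC, 132, 52.7 and 77.5 in the CD14hi moDC, and 84.5, 40.7 and 41.9 in the Ly6Chi moDC. The cDC populations did not overlap each other or either moDC population, whereas the moDC populations overlapped and were dim. The cDC were 8.18-fold higher than the moDC (3.03 ± 0.17, adjusted p = 9.3e-11), and CD103+ cDC were 2.44-fold higher than CD14lo cDC (1.29 ± 0.24, adjusted p = 0.00056). CD14lo cDC were 4.62-fold higher than CD14hi moDC (2.21 ± 0.24, adjusted p = 3.3e-06). Over the alternatives the Kit difference between cDC and moDC ran from 2.06 to 3.59. Between CD14hi and Ly6Chi moDC the difference was 0.36 ± 0.24 (adjusted p = 0.35), with a 95% confidence interval of -0.15 to 0.87. A second Kit probe set, at 570 ± 130, 259 ± 49.3, 24.9 ± 20.3 and 18.0 ± 15.5 over the same populations in the same order, gave the same 6 calls. Beside Kit, the summed signal of 10 mast cell and basophil markers ran from 220 to 290 in CD103+ cDC, 207 to 348 in the CD14lo cDC, 323 to 438 in the CD14hi moDC and 458 to 654 in the Ly6Chi moDC. Of the 10 markers 9 did not pass the filter, with Cpa3 and Fcer1a at means of 23.8 or less in every population. The part of such cells in the Kit level was not tested.

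Csf1r, the receptor for the monocyte and macrophage growth factors CSF1 and IL-34, set CD103+ cDC apart from the other 3 populations more than the cDC from the moDC. It gave 1521, 1201 and 1133 in CD103+ cDC, 12768, 11580 and 11810 in the CD14lo cDC, 14811, 18227 and 21249 in the CD14hi moDC, and 15157, 17520 and 15690 in the Ly6Chi moDC. All CD103+ cDC arrays lay far below all others, and the CD14lo cDC arrays lay below all moDC arrays. CD103+ cDC were 9.13-fold lower than CD14lo cDC (-3.19 ± 0.14, adjusted p = 1.8e-11), 13.6-fold lower than CD14hi moDC (-3.76 ± 0.14) and 12.2-fold lower than Ly6Chi moDC (-3.61 ± 0.14). The difference between the cDC and the moDC as a whole, -2.09 ± 0.10 (4.25-fold lower, adjusted p = 1.1e-11), averages this large step with the smaller ones. On this probe set CD14lo cDC were 1.48-fold lower than CD14hi moDC (-0.57 ± 0.14, adjusted p = 0.0081, and 0.16 when arrays were centred at their medians) and 1.34-fold lower than Ly6Chi moDC (-0.42 ± 0.14, adjusted p = 0.037). The last call was lost under several alternatives, among them the removal of any 1 array of either population (-0.46 to -0.36, adjusted p = 0.054 to 0.14). CD14hi and Ly6Chi moDC differed by 0.15 ± 0.14 (adjusted p = 0.52, 95% confidence interval -0.14 to 0.45), and this difference turned negative with quantile normalization, median centring or the other probe sets. On the other Csf1r probe sets, in a fit of every probe set, CD14lo cDC were 1.79-fold and 1.90-fold lower than CD14hi moDC (adjusted p = 0.00058 and 0.00026) and 2.06-fold and 2.58-fold lower than Ly6Chi moDC (adjusted p = 3e-05 and 1.3e-06), so the size of this step depends on the probe set. The second Csf1r probe set gave 346 ± 98.3 in CD103+ cDC, 6337 ± 582 in the CD14lo cDC, 11338 ± 464 in the CD14hi moDC and 13058 ± 517 in the Ly6Chi moDC, and both further Csf1r probe sets gave the same 6 calls.

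Csf3r, the G-CSF receptor of neutrophils and monocytes, ran against Flt3. It gave 53.4, 40.3 and 8.52 in CD103+ cDC, 234, 455 and 403 in the CD14lo cDC, 669, 508 and 596 in the CD14hi moDC, and 1369, 1362 and 1868 in the Ly6Chi moDC. The 4 populations did not overlap, and the CD103+ cDC arrays were all below their array medians. The cDC were 5.51-fold lower than the moDC (-2.46 ± 0.17, adjusted p = 1.4e-09), and CD103+ cDC were 19.2-fold lower than Ly6Chi moDC (-4.26 ± 0.24, adjusted p = 6e-11). Because CD103+ cDC were so dim, these sizes move with the pseudocount, from -5.29 to -2.88 for this difference and from -3.21 to -1.25 for the next. CD103+ cDC were 4.92-fold lower than CD14lo cDC (-2.30 ± 0.24, adjusted p = 9e-07), and CD14hi moDC were 2.46-fold lower than Ly6Chi moDC (-1.30 ± 0.24, adjusted p = 0.00083). The step between CD14lo cDC and CD14hi moDC was not called, at -0.67 ± 0.24 (adjusted p = 0.075). It was called without CD103+ cDC replicate 3 (adjusted p = 0.043) or CD14lo cDC replicate 2 (-0.83, adjusted p = 0.047). A larger pseudocount, 40% of the trimmed mean, also gave a call (-0.51, adjusted p = 0.044). Beside Csf3r, the sum of 9 neutrophil markers was 407 to 1847 in CD103+ cDC, 587 to 1022 in the CD14lo cDC, 672 to 1680 in the CD14hi moDC and 3296 to 3631 in the Ly6Chi moDC. Within the list, Cd177 averaged 14.2, 32.9, 40.1 and 590 in that order and S100a8 averaged 355, 259, 401 and 1257, while Elane, Mpo, Cxcr2, Camp and Ltf did not pass the filter. The part of such cells in the Csf3r level of Ly6Chi moDC was not tested.

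**Figure D2:**
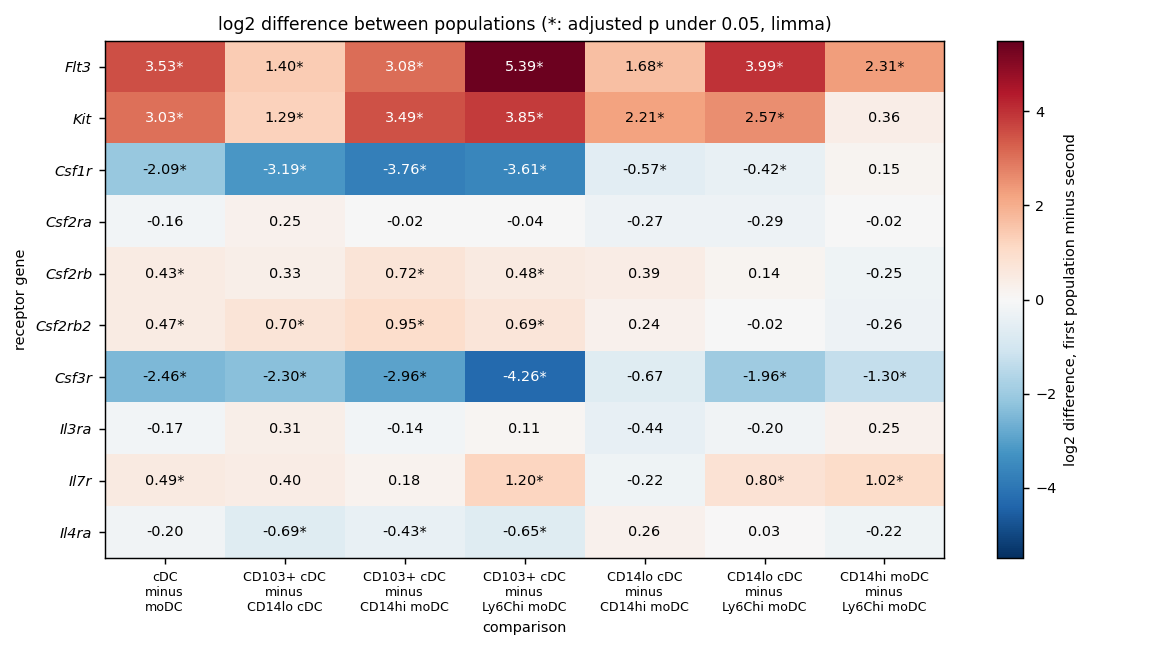
Log2 difference (colour and printed value) of each receptor gene, in rows, for the 7 comparisons, in columns, as the first-named population minus the second, with an asterisk where limma's adjusted p was under 0.05. Flt3 and Kit are positive and Csf1r and Csf3r negative for cDC minus moDC (3.53, 3.03, -2.09 and -2.46), while Csf2ra and Il3ra carry no asterisk in any column.

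Csf2ra, the alpha chain that binds GM-CSF, was the member with the smallest range between populations. It gave 13361, 8425 and 10642 in CD103+ cDC, 9148, 8945 and 8654 in the CD14lo cDC, 9659, 10968 and 11845 in the CD14hi moDC, and 10282, 11946 and 10643 in the Ly6Chi moDC. The CD103+ cDC arrays spanned the values of all other populations. None of the 6 pairs was called, and the cDC differed from the moDC by -0.16 ± 0.10 (adjusted p = 0.23), with a 95% confidence interval of -0.37 to 0.06. The interval of CD103+ cDC minus Ly6Chi moDC ran from -0.34 to 0.26. The range of its population means, 0.29 on the log2 scale, was exceeded by 84.4% of genes, for which the median range was 0.62. A second Csf2ra probe set gave no call either. The difference of cDC from moDC was called with quantile normalization (-0.19, adjusted p = 0.043), with the Gapdh ratio as a covariate (-0.30, adjusted p = 0.041) and without CD103+ cDC replicate 1 (-0.24, adjusted p = 0.047). Without CD103+ cDC replicate 2, the CD103+ cDC were called above the CD14lo cDC (0.42, adjusted p = 0.024), and a fit of only the arrays compared called CD14lo cDC below Ly6Chi moDC (-0.29, adjusted p = 0.043).

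The beta chains Csf2rb, shared by the GM-CSF, IL-3 and IL-5 receptors, and Csf2rb2, which in the mouse serves IL-3, were highest in CD103+ cDC by modest folds. Csf2rb gave 9367, 7698 and 10005 in CD103+ cDC, 6920, 7010 and 7412 in the CD14lo cDC, 5051, 4939 and 6361 in the CD14hi moDC, and 7317, 5645 and 6428 in the Ly6Chi moDC. On this probe set the CD103+ cDC arrays lay above all others, and the other populations overlapped in part. CD103+ cDC were 1.65-fold higher than CD14hi moDC (0.72 ± 0.14, adjusted p = 4e-04) and 1.39-fold higher than Ly6Chi moDC (0.48 ± 0.14, adjusted p = 0.0079). Against CD14lo cDC the difference of 0.33 ± 0.14 was not called (adjusted p = 0.081), but it was without CD103+ cDC replicate 2 (0.44, adjusted p = 0.027). CD14lo cDC minus CD14hi moDC was 0.39 ± 0.14 (adjusted p = 0.064), with adjusted p = 0.043 without CD103+ cDC replicate 2 and 0.023 without CD14hi moDC replicate 3. It was also called with quantile normalization (0.45, adjusted p = 0.0089) and with a replicate block (adjusted p = 0.043). Over both populations a side, the cDC were 1.35-fold higher (0.43 ± 0.10, adjusted p = 0.0014). On a second Csf2rb probe set the CD103+ cDC arrays overlapped those of CD14lo cDC and of Ly6Chi moDC. In a fit of every probe set it was called for CD103+ cDC minus CD14hi moDC (0.57 ± 0.19, adjusted p = 0.023). It was not called for CD103+ cDC against Ly6Chi moDC (0.41 ± 0.19, adjusted p = 0.084) or CD14lo cDC (0.23 ± 0.19, adjusted p = 0.42).

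Csf2rb2 gave 3917, 2665 and 3506 in CD103+ cDC, 2302, 2008 and 1779 in the CD14lo cDC, 1805, 1512 and 1790 in the CD14hi moDC, and 2304, 1764 and 2099 in the Ly6Chi moDC. Again all CD103+ cDC arrays lay above all others, and the remaining populations overlapped. CD103+ cDC were 1.63-fold higher than CD14lo cDC (0.70 ± 0.16, adjusted p = 0.0028), 1.93-fold higher than CD14hi moDC (0.95 ± 0.16, adjusted p = 0.00013) and 1.61-fold higher than Ly6Chi moDC (0.69 ± 0.16, adjusted p = 0.0017). No other pair was called. The array with the low Gapdh ratio, CD103+ cDC replicate 2, was the lowest of its population for both beta chains and for Csf2ra. With that ratio as a covariate, the difference from Ly6Chi moDC was no longer called for Csf2rb (adjusted p = 0.19) or Csf2rb2 (adjusted p = 0.068), whereas both stayed called against CD14hi moDC. Centring the arrays at their medians also ended both calls against Ly6Chi moDC (adjusted p = 0.23 and 0.059). Csf2rb and Csf2rb2 are near-identical neighbours on chromosome 15 with 0 protein-coding genes between them, so the signals of their probe sets may be mixed and the split between them is uncertain. A probe set annotated to both gave 8577 ± 1385 in CD103+ cDC, 5678 ± 497 in the CD14lo cDC, 4971 ± 1237 in the CD14hi moDC and 5096 ± 591 in the Ly6Chi moDC, and was called for CD103+ cDC against each of the others.

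Il3ra, the alpha chain of the IL-3 receptor, was not called in any comparison. It gave 568, 219 and 300 in CD103+ cDC, 232, 209 and 368 in the CD14lo cDC, 344, 349 and 441 in the CD14hi moDC, and 251, 327 and 355 in the Ly6Chi moDC. All 4 populations overlapped, and CD103+ cDC replicate 1 alone held the highest value of the 12 arrays. CD103+ cDC minus CD14lo cDC was 0.31 ± 0.26, with an interval of -0.25 to 0.86, so differences of this size could not be told from 0 with 3 arrays. The 7 plasmacytoid DC markers beside Il3ra summed to 2540 to 2817 in CD103+ cDC, 2712 to 3091 in the CD14lo cDC, 2180 to 3036 in the CD14hi moDC and 2454 to 3674 in the Ly6Chi moDC, with overlapping ranges. Single markers went both ways, with 3 of the 7 higher and 1 lower in cDC than in moDC (20.8% and 20.7% of all genes).

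Il7r, the chain that binds IL-7 and, paired with Crlf2, TSLP (an epithelial cytokine of allergic airways), singled out Ly6Chi moDC as low. It gave 4092, 3527 and 3728 in CD103+ cDC, 3189, 2598 and 2794 in the CD14lo cDC, 3274, 2988 and 3788 in the CD14hi moDC, and 2272, 1211 and 1535 in the Ly6Chi moDC. Every Ly6Chi moDC array lay below every other array. CD103+ cDC were 2.29-fold higher than Ly6Chi moDC (1.20 ± 0.18, adjusted p = 2.1e-05), CD14lo cDC were 1.74-fold higher (0.80 ± 0.18, adjusted p = 0.0025) and CD14hi moDC were 2.03-fold higher (1.02 ± 0.18, adjusted p = 0.00044). The other 3 pairs were not called, so CD14hi moDC went with the cDC populations and not with the other moDC. The difference between cDC and moDC, 0.49 ± 0.13 (adjusted p = 0.0045), averages over this split, and its adjusted p was 0.06 with the second probe set. Beside Il7r, the summed signal of 8 T cell and innate lymphoid markers was 342 to 466 in CD103+ cDC, 295 to 345 in the CD14lo cDC, 258 to 298 in the CD14hi moDC and 234 to 322 in the Ly6Chi moDC. This sum was highest where Il7r was highest, but its ranges in the moDC populations overlapped, whereas their Il7r arrays did not. Bcl11b, the 1 marker of the list that passed the filter, was called higher in cDC than in moDC (0.39 ± 0.15, adjusted p = 0.041), in CD103+ cDC than in the CD14hi moDC (0.58 ± 0.21, adjusted p = 0.037) and in CD103+ cDC than in the Ly6Chi moDC (0.59 ± 0.21, adjusted p = 0.026). Cd3e had means of 76.6 or less and Gata3 of 3.35 or less. The part of such cells in the Il7r level was not tested.

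Il4ra, the chain shared by the IL-4 and IL-13 receptors, was lowest in CD103+ cDC. It gave 1793, 1704 and 1511 in CD103+ cDC, 2988, 2203 and 3023 in the CD14lo cDC, 2205, 2110 and 2481 in the CD14hi moDC, and 2769, 2760 and 2426 in the Ly6Chi moDC. Every CD103+ cDC array lay below every other array, and the other 3 populations overlapped. CD103+ cDC were 1.61-fold lower than CD14lo cDC (-0.69 ± 0.15, adjusted p = 0.0015) and 1.57-fold lower than Ly6Chi moDC (-0.65 ± 0.15, adjusted p = 0.0011). The difference from CD14hi moDC, -0.43 ± 0.15 (adjusted p = 0.027), was lost under 7 of 24 alternatives, among them the removal of CD103+ cDC replicate 3, CD14hi moDC replicate 1 or CD14hi moDC replicate 3 (-0.45 to -0.36, adjusted p = 0.052 to 0.1). The cDC as a whole did not pass the test against the moDC (-0.20 ± 0.10, adjusted p = 0.14). The next brightest Il4ra probe set, at means of 725 to 1192, was called lower in CD103+ cDC than in CD14lo cDC (adjusted p = 0.013) and in Ly6Chi moDC (adjusted p = 0.0024). It was not called against CD14hi moDC (adjusted p = 0.27). A further, dimmer Il4ra probe set, at means of 103 to 153, had no call and was highest in CD103+ cDC. Its sign was that of the brightest probe set in 3 of 7 comparisons.

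**Figure D3:**
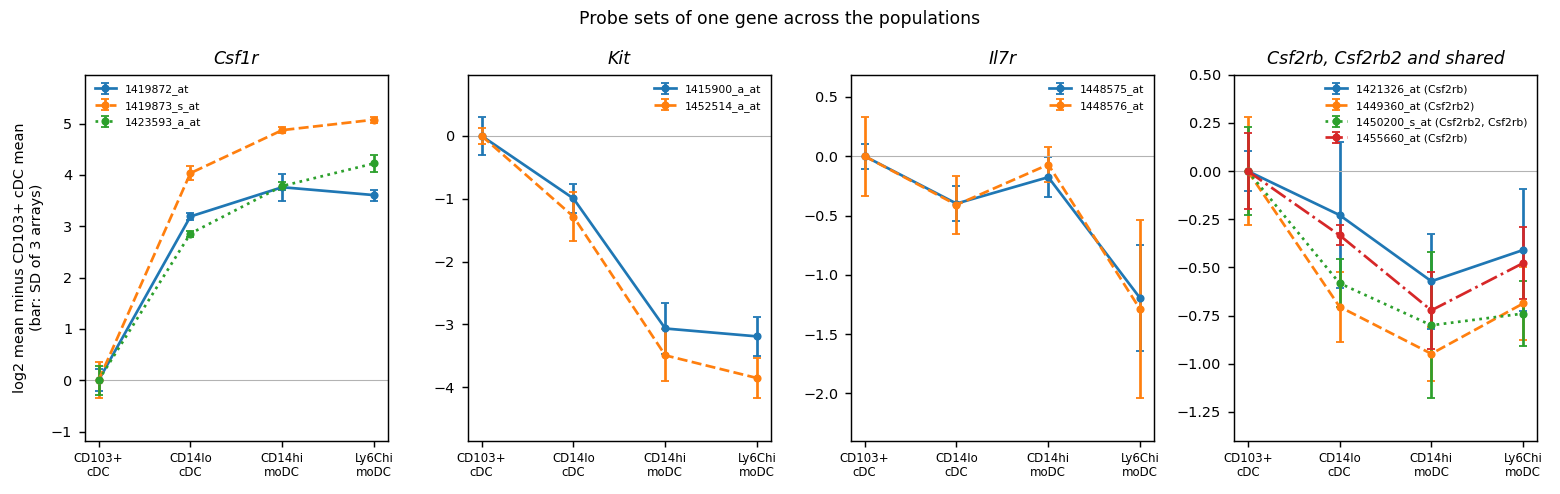
Log2 mean of each probe set minus its own mean in CD103+ cDC, by population, for Csf1r, Kit, Il7r and the beta chains, with bars for the SD of 3 arrays and 1 line a probe set. The probe sets of a gene follow a like course, except that the standing Csf1r probe set is highest in the CD14hi moDC (18096) whereas both others are highest in the Ly6Chi moDC (13058 and 4978), and that the probe set shared by the beta chains has the sign of Csf2rb2 in 6 of 7 comparisons.

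Counted over the 10 receptors, 7 were called between cDC and moDC, 5 higher and 2 lower, where 41.5% of all genes tested were called, 20.8% higher and 20.7% lower. Between CD103+ and CD14lo cDC 6 were called, 3 each way (28.7% of all genes, 13.4% higher and 15.3% lower). Between CD14lo cDC and CD14hi moDC, which are both CD11bhi, 3 were called, with Flt3 and Kit higher and Csf1r lower (16.2% of all genes, 6.95% higher and 9.24% lower). Between CD14hi and Ly6Chi moDC 3 were called, with Flt3 and Il7r higher and Csf3r lower (18.2% of all genes, 11.4% higher and 6.82% lower). Counts this small beside such a background are no result about the set. Between CD103+ cDC and CD14hi moDC 7 were called, 4 higher and 3 lower (37.2% of all genes, 16.9% higher and 20.3% lower). Between CD103+ cDC and Ly6Chi moDC 8 were called, 5 higher and 3 lower (47.5% of all genes, 23.2% higher and 24.3% lower). Between CD14lo cDC and Ly6Chi moDC 5 were called, 3 higher and 2 lower (25.2% of all genes, 14% higher and 11.2% lower). The median size of the log2 difference over the members was 0.48 between cDC and moDC, against 0.28 over all genes, and 0.26 between CD14hi and Ly6Chi moDC, against 0.25.

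Arrays of the compared populations did not overlap for 4 members between cDC and moDC (11.7% of all genes), for 8 between CD103+ and CD14lo cDC (39.2%), for 6 between CD14lo cDC and CD14hi moDC (32.5%) and for 3 between CD14hi and Ly6Chi moDC (36%). They did not overlap for 7 members between CD103+ cDC and CD14hi moDC (45.8%), for 8 between CD103+ cDC and Ly6Chi moDC (53.3%) and for 6 between CD14lo cDC and Ly6Chi moDC (39.5%). The 4 members whose cDC and moDC arrays did not overlap were Flt3, Kit, Csf1r and Csf3r.

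The members also split by how many of the 6 pairs of populations were called. Flt3 was called in 6, Kit, Csf1r and Csf3r in 5, Csf2rb2, Il7r and Il4ra in 3, Csf2rb in 2, and Csf2ra and Il3ra in 0. Among all genes, 40% were called in 0 pairs, 11.4% in 2, 17.5% in 3, 8.45% in 5 and 1.36% in 6. The range of the population means is the largest of the same pairwise differences and so not independent of the calls. This range also set Flt3, Kit, Csf1r and Csf3r apart from the other members. It was 5.39 for Flt3, 4.26 for Csf3r, 3.85 for Kit and 3.76 for Csf1r on the log2 scale, and 1.20 or less for the rest. Of all genes, 2.21% had a larger range than Csf1r and 22.5% a larger one than Il7r.

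**Figure D4:**
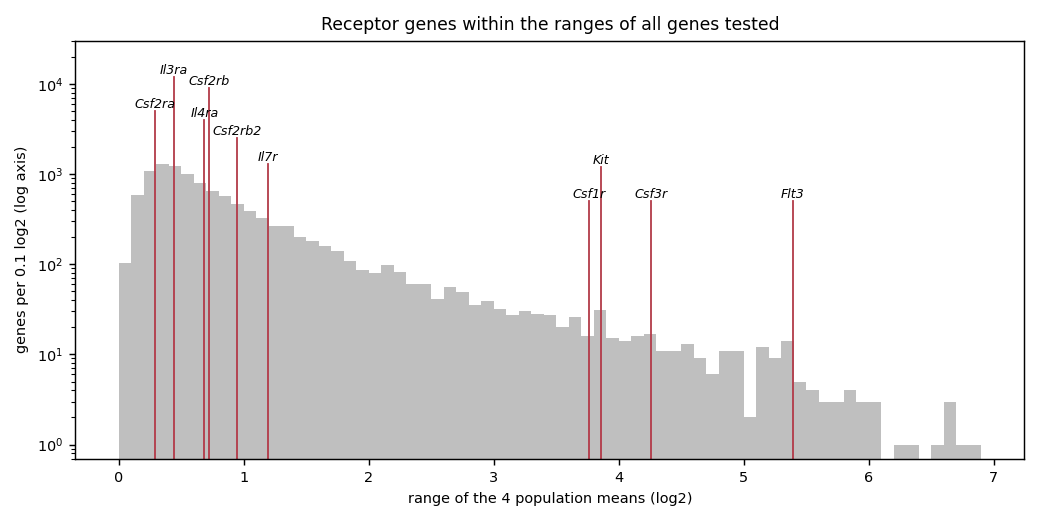
Number of genes (log axis) by the range of the 4 population means (log2 difference between the highest and the lowest mean, in bins of 0.1), over all 10929 genes tested, with a line at each of the 10 receptors. Flt3 (5.39), Csf3r (4.26), Kit (3.85) and Csf1r (3.76) lie in the far right tail, and Csf2ra (0.29) lies below the median of 0.62.

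Over the 12 arrays, Flt3 ran with Kit (Pearson r = 0.94) and against Csf3r (r = -0.93), and Csf1r ran with Csf3r (r = 0.90). The beta chains Csf2rb and Csf2rb2 ran together (r = 0.89), as did Csf1r and Il4ra (r = 0.81). These coefficients describe 12 arrays that fall into 4 populations, so they reflect the population means more than the spread within them. The 3 genes most like Flt3 over the arrays were Ezh2, P2ry10 and Btla (r = 0.992, 0.991 and 0.990), and those most like Csf1r were Sirpa, Ctsa and Cybb (r = 0.996, 0.994 and 0.994). Kit was closest to Cyb561a3 (r = 0.985), Csf3r to Arid5b (r = 0.990), Il7r to Mir155hg (r = 0.965), Il4ra to Crtc3 (r = 0.957), Csf2rb to Kcmf1 (r = 0.952) and Csf2rb2 to Hyls1 (r = 0.959). For the genes with little difference between populations the closest match was looser, at 0.908 for Csf2ra and 0.845 for Il3ra, both to Ccnl1.

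Most of the listed JAK and STAT genes, some of which also serve other receptors, were higher in the cDC. Of 11 listed genes 10 were tested, and 8 were higher and 0 lower in cDC than in moDC, where 20.8% of all genes were higher and 20.7% lower, with a median log2 difference of 0.64 against 0.00 over all genes. With the arrays centred at their medians 7 were higher, and with quantile normalization 8. Between CD103+ cDC and Ly6Chi moDC 7 were higher and 0 lower (23.2% and 24.3% of all genes), with a median of 0.84. Calls also went 1 way inside each side. In CD103+ against CD14lo cDC 4 were higher and 0 lower (13.4% and 15.3% of all genes). In CD14hi against Ly6Chi moDC 3 were higher and 0 lower (11.4% and 6.82% of all genes). Stat4, which acts downstream of IL-12 and interferons, averaged 4762 ± 504 in CD103+ cDC, 1855 ± 61.2 in the CD14lo cDC, 1253 ± 42.5 in the CD14hi moDC and 196 ± 44.3 in the Ly6Chi moDC, and CD103+ cDC were 19.8-fold higher than Ly6Chi moDC (log2 difference 4.30 ± 0.15, adjusted p = 2.2e-13). Stat5a, which carries the GM-CSF signal, averaged 8031 ± 848, 5269 ± 545, 4131 ± 394 and 2114 ± 15.5 in the same order (1.90 ± 0.13 for CD103+ cDC minus Ly6Chi moDC, adjusted p = 5.9e-10). Jak2, the kinase bound to the beta chains, was also higher in CD103+ cDC than in the Ly6Chi moDC (1.71 ± 0.16, adjusted p = 7.4e-08), as was Tyk2 (1.40 ± 0.17, adjusted p = 1.3e-06). Jak1 was not called in any of the 7 comparisons.

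Chains that pair with these receptors, or that share the common gamma chain with Il7r and Il4ra, were tested for 5 of 10 listed genes. Of the 5, 3 were higher and 0 lower in cDC than in moDC (20.8% and 20.7% of all genes), and 2 were higher with median centring. The 3, Il2ra, Il15ra and Il21r, belong to other receptors and pair with none of the 10 members. Il2ra, the IL-2 receptor alpha chain, averaged 4493 ± 762 in CD103+ cDC, 2673 ± 795 in the CD14lo cDC, 2889 ± 238 in the CD14hi moDC and 184 ± 69.7 in the Ly6Chi moDC, so that, as for Il7r, Ly6Chi moDC were the low population. CD14hi moDC were 12.9-fold higher than Ly6Chi moDC for Il2ra (3.69 ± 0.22, adjusted p = 1e-09). Il15ra, the IL-15 receptor alpha chain, averaged 5123 ± 74.3, 1766 ± 471, 2009 ± 157 and 380 ± 93.9 in the same order, and CD14hi moDC were again higher than Ly6Chi moDC (2.28 ± 0.18, adjusted p = 4e-08). Crlf2, which pairs with Il7r for TSLP, averaged 3530 ± 548, 4582 ± 997, 3719 ± 498 and 5385 ± 1017, and was lower in CD14hi than in the Ly6Chi moDC (-0.52 ± 0.17, adjusted p = 0.046, and 0.071 with quantile normalization), the other way round from Il7r. Il2rg, the common gamma chain that Il7r and Il4ra signal with, had no probe set with a single symbol.

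**Figure D5:**
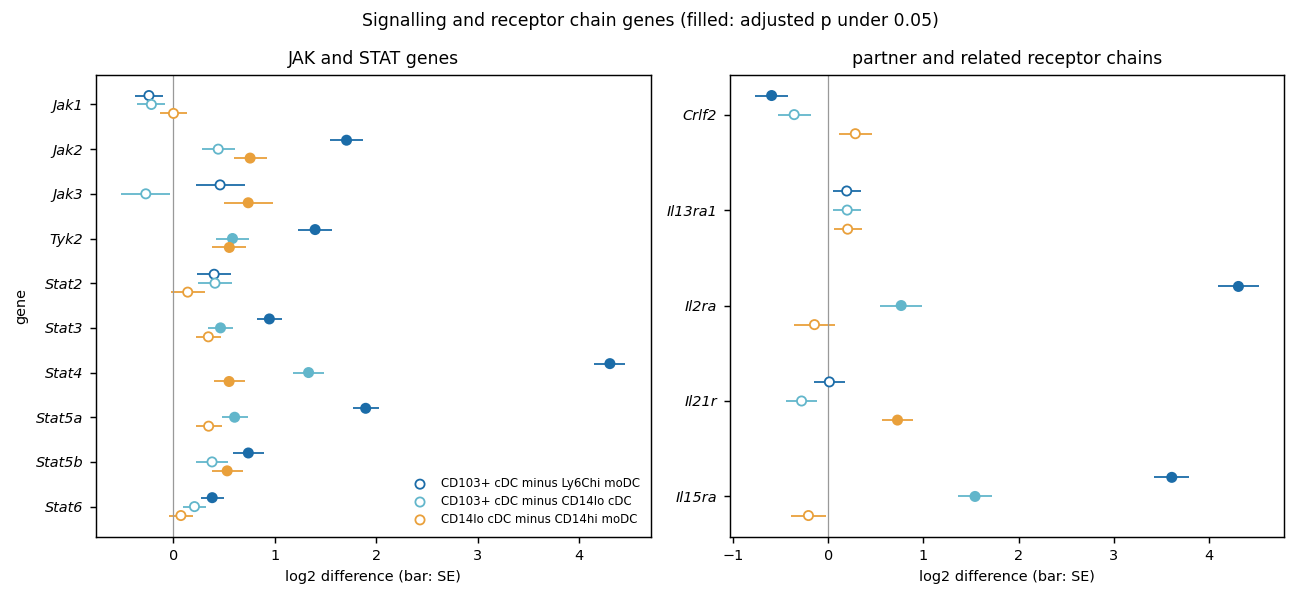
Log2 difference with its SE for the tested JAK and STAT genes and the partner and related receptor chains, 1 gene a row, in the comparisons of CD103+ cDC with Ly6Chi moDC, CD103+ with CD14lo cDC and CD14lo cDC with CD14hi moDC, filled where the adjusted p was under 0.05. Every called JAK and STAT gene lies above 0, and Stat4 (4.30), Il2ra (4.31) and Il15ra (3.61) lie farthest out for CD103+ cDC minus Ly6Chi moDC.

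Of 12 listed ligands 2 passed the filter, and both were lower in the cDC than in the moDC (20.7% of all genes). Against Ly6Chi moDC alone, only 1 of the 2 was called lower, in CD103+ cDC and in the CD14lo cDC alike. Csf1, the ligand of Csf1r, averaged 188 ± 66.6 in CD103+ cDC, 188 ± 41.1 in the CD14lo cDC, 505 ± 79.2 in the CD14hi moDC and 1105 ± 352 in the Ly6Chi moDC, and the cDC were 3.4-fold lower (-1.75 ± 0.18, adjusted p = 2.1e-07). Kitl, the ligand of Kit, was highest in the CD14hi moDC, at 220 ± 38.7, against 39.5 ± 34.5 in the Ly6Chi moDC (1.65 ± 0.28, adjusted p = 0.00036), where Kit itself was low. Csf2, which encodes GM-CSF, averaged 47.8 or less in each population, Csf3 43.1 or less and Il7 43.5 or less, and these did not pass the filter.

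Of 21 adaptors and signal regulators tested, 4 were higher and 5 lower between cDC and moDC, shares near the 20.8% and 20.7% of all genes, so the count is no result about the list. Cblb, a ubiquitin ligase that limits receptor signals, averaged 4601 ± 473 in CD103+ cDC, 1881 ± 237 in the CD14lo cDC, 1454 ± 175 in the CD14hi moDC and 394 ± 53.3 in the Ly6Chi moDC, the order of Flt3. Dok2, a docking protein that dampens kinase signals, averaged 171 ± 27.1, 1284 ± 468, 2657 ± 277 and 3790 ± 238, the order of Csf3r. CD103+ cDC minus Ly6Chi moDC was 3.39 ± 0.15 for Cblb (adjusted p = 3.2e-12) and -4.12 ± 0.21 for Dok2 (adjusted p = 1.7e-11).

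Of 15 genes tested that are known to respond to these receptors, 4 were higher and 5 lower between cDC and moDC, beside 20.8% and 20.7% of all genes, which again is no result about the list. Cish, a feedback inhibitor induced through STAT5, averaged 3373 ± 743 in CD103+ cDC, 2335 ± 387 in the CD14lo cDC, 1549 ± 96.7 in the CD14hi moDC and 2192 ± 454 in the Ly6Chi moDC, and CD103+ cDC were higher than CD14hi moDC (1.08 ± 0.18, adjusted p = 9e-05), the order of Csf2rb. Retnla and Arg1, genes that IL-4 and IL-13 induce in macrophages, parted the moDC populations in opposite directions. Retnla averaged 10702 ± 637 in the CD14hi moDC and 377 ± 109 in the Ly6Chi moDC (4.68 ± 0.35, adjusted p = 1.7e-08), whereas Arg1 averaged 169 ± 98.4 in the CD14hi moDC and 3108 ± 308 in the Ly6Chi moDC (-3.93 ± 0.29, adjusted p = 1.5e-08). Il4ra itself was not called between these populations (-0.22 ± 0.15, adjusted p = 0.34).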

How the data were processed

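The deposited values are linear MAS5 intensity values, made by the authors with MAS5 per the submitters' processing notes, from 50 ng of amplified, biotin-labelled RNA a sample. The 2% trimmed mean of every array is 500.003, so the arrays had been scaled to it. Neither the version of MAS5 nor detection calls are known here, and every array was used as deposited.

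Of 45101 probe sets, 64 controls were left out. Symbols came from the platform annotation, which gave 1 symbol to 34945 probe sets, several to 932 and none to 9160; those with 1 were used. Probe sets above the median of their array on at least 3 of 12 arrays were retained, and each gene was represented by its brightest retained probe set, which gave 10929 genes. A pseudocount of 50.0, 10% of the trimmed mean, was added before log2. The model, with 1 mean for each population over the 12 arrays, was fitted in limma 3.58.1 (lmFit, eBayes with trend, 8 residual degrees of freedom) in R 4.3.3. Tests were two-sided and Benjamini-Hochberg adjusted over all genes, for 7 comparisons. The fit was tested on simulated data. Promoter windows came from RefSeq (GRCm38.p6), and figures from matplotlib 3.10.9.

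The members and the gene lists were chosen with earlier results of these data known. All members are described, along with the 3 genes most like each and up to 4 called genes of a list with the largest differences; not all of these are printed. Replicate numbers were treated as not pairing the samples: of 18 pairs of the same number, 8 had deviations correlated above 0.1, and the coefficients ran from -0.11 to 0.24. The alternatives were other scalings, pseudocounts, filters and probe set rules, only the arrays compared, no trend, a 2-fold requirement, a replicate block, the Gapdh ratio as a covariate, and each array left out in turn. Each biological replicate pooled 20 mice, and p-values measure the spread between these pools.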

Additional observations from a re-analysis of the deposited data

How the results depend on the processing

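Of 70 differences of the 10 receptors, 39 were called. All 39 kept their direction under every alternative, and 32 stayed called under every alternative without a fold requirement. The 7 lost at least once concern Csf1r, Csf2rb, Csf2rb2, Il7r and Il4ra, and 9 of the other 31 were gained at least once. Counts below follow 1 order of comparisons: cDC minus moDC, CD103+ minus CD14lo, CD14lo minus CD14hi, CD14hi minus Ly6Chi, CD103+ minus CD14hi, CD103+ minus Ly6Chi and CD14lo minus Ly6Chi. With a 2-fold requirement 1193, 1181, 763, 845, 1711, 2434 and 1195 genes were called. It left 4 receptors called for cDC minus moDC and for CD103+ minus CD14hi, 5 for CD103+ minus Ly6Chi and 3 for CD14lo minus Ly6Chi. With every kept probe set tested on its own, which raises the number tested, 7923, 5235, 2902, 3393, 7088, 9169 and 4658 were called. A next brightest probe set of a single symbol was there for Kit, Csf1r, Csf2ra, Csf2rb, Il7r and Il4ra. With it, 3 receptors were called for cDC minus moDC, CD103+ minus CD14lo, CD103+ minus CD14hi and CD14lo minus Ly6Chi. It gave 1 for CD14hi minus Ly6Chi and 4 for CD103+ minus Ly6Chi. Centring the arrays at their medians called 6 receptors and 3349 genes for CD14hi minus Ly6Chi, against 3 and 1993 as deposited. That centring shifted the median log2 difference of all genes to 0.14 for CD14lo minus CD14hi, -0.29 for CD14hi minus Ly6Chi, 0.12 for CD103+ minus CD14hi, -0.19 for CD103+ minus Ly6Chi and -0.16 for CD14lo minus Ly6Chi. In these 5 comparisons the share of calls that were higher was 56.9%, 23%, 57.8%, 35.9% and 36.1%, against 42.9%, 62.6%, 45.5%, 48.8% and 55.5% as deposited. Leaving out each array in turn, 4170 to 4596, 2513 to 3141, 1303 to 1850, 1507 to 2087, 3471 to 4143, 4668 to 5238 and 2285 to 2827 genes were called.

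With a replicate block 4612, 3232, 1849, 2059, 4185, 5250 and 2826 genes were called, and 7, 6, 4, 3, 7, 8 and 4 receptors. The block ended the call of Csf1r for CD14lo minus Ly6Chi and added one of Csf2rb for CD14lo minus CD14hi (adjusted p = 0.043). Of the 12 samples, 8 correlated best with their own number, a hint from the data and not from the design.

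Differences that changed sign were all uncalled. The next brightest probe set gave Csf2ra at -0.30 for CD103+ minus CD14lo, 0.17 for CD14hi minus Ly6Chi and 0.0746 for CD14lo minus Ly6Chi, Csf1r at -0.20 for CD14hi minus Ly6Chi and Il4ra at -0.0879 for CD14lo minus Ly6Chi. The mean of kept probe sets gave Csf2ra at -0.0264 for CD103+ minus CD14lo and 0.0751 for CD14hi minus Ly6Chi, where it gave Csf1r at -0.16. Median centring gave Csf1r at -0.18 and Il3ra at -0.047 for CD14hi minus Ly6Chi, Csf2ra at 0.13 and Il3ra at 0.0002 for CD103+ minus CD14hi, Il3ra at -0.0469 for CD103+ minus Ly6Chi, and Csf2rb at -0.0477 and Il4ra at -0.16 for CD14lo minus Ly6Chi. Quantile normalization gave Csf1r at -0.0547 for CD14hi minus Ly6Chi, and the Gapdh covariate gave Il3ra at -0.25 for CD103+ minus Ly6Chi. Leaving out 1 array gave -0.0281 to 0.57 for Il3ra in CD103+ minus CD14lo and -0.0868 to 0.0597 for Csf2ra in CD14hi minus Ly6Chi. For CD103+ minus CD14hi it gave -0.19 to 0.14 for Csf2ra and -0.47 to 0.13 for Il3ra, and for CD103+ minus Ly6Chi -0.21 to 0.12 and -0.22 to 0.38. For CD14lo minus Ly6Chi it gave -0.12 to 0.0719 for Csf2rb2 and -0.044 to 0.18 for Il4ra. The cause was not tested in any of these. Dim genes are measured least precisely, and no detection calls were used to set them aside.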

Other observations

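Other cytokine and growth factor receptors, a list of 26 genes of which 19 were tested, were mostly lower in CD103+ cDC. Of the 19, 1 was higher and 12 were lower in cDC than in moDC, also with median centring and with quantile normalization, with a median log2 difference of -0.59 against 0.00 over all genes, of which 20.8% were higher and 20.7% lower. Inside the cDC, CD103+ against CD14lo, 2 were already higher and 10 lower (13.4% and 15.3% of all genes), whereas 2 were higher and 6 lower between CD14lo cDC and CD14hi moDC (6.95% and 9.24%), with medians of -0.44 and -0.14. Mertk, a receptor kinase that macrophages use to take up dying cells, averaged 61.5 ± 25.2 in CD103+ cDC, 71.9 ± 44.8 in the CD14lo cDC, 828 ± 272 in the CD14hi moDC and 889 ± 201 in the Ly6Chi moDC (SD, n = 3), and the cDC were 7.8-fold lower (log2 difference -2.97 ± 0.19, limma adjusted p = 5.3e-10). It parted CD14lo cDC from CD14hi moDC (-2.87 ± 0.27, adjusted p = 5.7e-07), a pair for which the Csf1r difference was -0.57 ± 0.14, and did not part CD103+ from CD14lo cDC (-0.09 ± 0.27, adjusted p = 0.85). Tgfbr2, a TGF-beta receptor chain, averaged 802 ± 70.4, 1625 ± 96.1, 3509 ± 799 and 2736 ± 14.0 in the same order, and the cDC were 2.6-fold lower (-1.39 ± 0.11, adjusted p = 8.6e-09). Il6st, the signalling chain of the IL-6 family receptors, was the 1 gene of the list that was higher in the cDC (0.58 ± 0.15), while Il6ra, the chain that binds IL-6, was lower (-0.59 ± 0.09).

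Il7r, Il2ra and Il15ra had their low level in the same population, Ly6Chi moDC, and each was called for CD14hi minus Ly6Chi moDC, at 1.02 ± 0.18, 3.69 ± 0.22 and 2.28 ± 0.18. For Il2ra the difference inside the cDC, CD103+ minus CD14lo, was 0.77 ± 0.22. Whether the difference inside the moDC exceeds it was not tested.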
